A study of Homo sapiens with 6 samples.

Results

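The netrin guidance system was examined through 9 genes that encode its cues and receptors, UNC5A, UNC5B, UNC5C, UNC5D, DCC, NEO1, NTN1, NTN4 and NTNG1. Their accessible sites were taken from an ATAC-seq peak table of A375, an established human melanoma cell line. A peak belonged to a gene when its centre lay in the GENCODE gene body, or, for intergenic peaks, when the gene had the nearest protein-coding start site. This assigned 162 of 152800 peaks to the 9 genes. UNC5D had 41, UNC5C 28, UNC5A 17, NTN1 16, DCC 14, NTN4 13, UNC5B 12, NTNG1 11 and NEO1 10, and all 162 passed the filter on low counts. The genes had been selected on earlier results of these libraries, in which UNC5D stood out, so every fold change and count of calls below is a description of chosen genes and not a test.

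ATAC-seq marks accessible DNA by the insertion of sequencing adaptors with the Tn5 transposase, and the measured quantity is the number of reads over each peak. Both conditions were A375 melanoma cells: 3 libraries carried an empty vector (EV1 to EV3) and 3 overexpressed HMGB2, a high mobility group protein that binds and bends DNA (HMGB2OE, OE1 to OE3). The HMGB2OE cells were a stable line made with lentivirus, compared after freezing in DMSO-containing medium and thawing. The study describes its ATAC-seq replicates as technical and the experiment as not repeated, so the spread reported here is that between libraries and not between independently made lines. In such bulk libraries, more cells open at a site and more insertions per cell cannot be told apart.

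Netrins are laminin-related cues that steer growing axons and migrating cells. DCC and its relative neogenin (NEO1) usually mediate attraction to netrin-1, whereas the UNC5 receptors mediate repulsion, alone or together with DCC. DCC and UNC5 proteins are also known as dependence receptors, which can trigger cell death when no netrin is bound. Melanocytes derive from the neural crest, a migratory cell population that meets many of the same guidance cues.

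Outside UNC5D, 8 member peaks were called as changed, and 4 of them are shown here because they carry the clearest changes in DCC, UNC5C and NTNG1. Each is the central 300 bases of a 502-base peak, from hg38, plus strand. Capitals mark 2 kinds of word that were searched on both strands, the AP-1 word TGACTCA with its reverse complement TGAGTCA, and the SOX-type word ACAAAG with its reverse complement CTTTGT. The E-box word CACGTG was searched too and occurs in none of the 4. The DCC peak that fell lies upstream of the gene, at chr18:52237625-52237924, and holds none of the searched words.
DCC fall: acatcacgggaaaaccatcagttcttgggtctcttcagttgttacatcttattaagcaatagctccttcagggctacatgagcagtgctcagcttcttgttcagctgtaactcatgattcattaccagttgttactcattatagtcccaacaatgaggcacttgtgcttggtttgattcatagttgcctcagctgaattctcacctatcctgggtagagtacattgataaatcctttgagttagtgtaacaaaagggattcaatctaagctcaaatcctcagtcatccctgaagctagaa
The DCC peak that rose lies in an intron, at chr18:52553339-52553638, and holds the SOX-type word at 2 places.
DCC rise: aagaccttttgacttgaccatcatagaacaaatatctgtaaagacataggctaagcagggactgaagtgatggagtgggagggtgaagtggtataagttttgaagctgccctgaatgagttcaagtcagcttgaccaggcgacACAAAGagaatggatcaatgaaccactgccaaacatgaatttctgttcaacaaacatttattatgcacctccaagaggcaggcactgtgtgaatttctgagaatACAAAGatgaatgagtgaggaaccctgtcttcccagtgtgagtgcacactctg
The UNC5C peak with the largest fall lies upstream of the gene, at chr4:95585282-95585581, and is AT-rich, with 34.7% G and C in the window and none of the searched words.
UNC5C fall: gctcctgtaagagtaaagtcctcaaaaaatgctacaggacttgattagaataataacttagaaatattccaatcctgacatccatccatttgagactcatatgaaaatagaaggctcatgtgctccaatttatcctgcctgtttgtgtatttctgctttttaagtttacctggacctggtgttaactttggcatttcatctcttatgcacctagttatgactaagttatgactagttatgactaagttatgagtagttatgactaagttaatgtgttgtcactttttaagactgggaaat
The NTNG1 peak that rose lies beyond the 3′ end of the gene, at chr1:107544173-107544472, and holds 1 AP-1 word.
NTNG1 rise: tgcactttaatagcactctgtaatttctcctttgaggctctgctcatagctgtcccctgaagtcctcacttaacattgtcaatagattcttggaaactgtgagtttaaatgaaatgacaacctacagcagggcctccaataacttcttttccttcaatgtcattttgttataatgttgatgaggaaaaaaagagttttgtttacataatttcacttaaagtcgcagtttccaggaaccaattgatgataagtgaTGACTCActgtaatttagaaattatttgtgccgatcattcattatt
The 4 called peaks not shown went the other way in the same window. The 2 UNC5C rises held none of the searched words. The UNC5C fall from 95675580 and the UNC5A fall held 1 SOX-type word each. Over all 150117 tested peaks, 28.0% held an AP-1 word and 37.3% a SOX-type word in their full length. Read in full length too, the 4 rises outside UNC5D held an AP-1 word in 1 peak and a SOX-type word in 3. The 4 falls held an AP-1 word in 0 peaks and a SOX-type word in 2.

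Between 26910189 and 45645294 reads per library fell in peaks, with EV1 the shallowest. The promoter of HMGB2 itself was equally accessible in both conditions (log2 fold change −0.01 ± 0.08, SE). Another peak assigned to HMGB2 (from 173332680) had more reads in the HMGB2OE libraries (98.4 ± 5.31 against 32.02 ± 15.7 normalized counts, SD, n = 3 each). So did the peak from 173331939 (63.0 ± 10.6 against 28.7 ± 6.28, SD, n = 3 each). The HMGB2 peak from 173346039 changed little (log2 fold change −0.03 ± 0.20, SE). The source of the added reads was not tested. Of the melanocyte lineage genes, MITF, SOX10 and PMEL had promoter peaks of 1325, 859 and 292 normalized counts in empty vector, and the table held no peak within 3 kb of a start site of MLANA, TYR, TYRP1 or DCT. Among genes of other lineages, PTPRC had no promoter peak, PECAM1 had one of 27.7, and CD3E and EPCAM had peaks of 254 and 221. No marker promoter that had a peak differed by more than 0.07 on the log2 scale between the conditions.

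Across the 9 genes, accessibility changed mainly at UNC5D. A peak was called when edgeR's quasi-likelihood test, adjusted over all tested peaks, gave an adjusted p under 0.05 and the fold change was at least 1.5. Of the 162 member peaks, 15 were called higher in HMGB2OE, beside 1.87% of all tested peaks, and 4 were called lower, beside 1.44%. UNC5D held 11 of the 15 rises and none of the falls. The remaining calls were 2 rises and 2 falls in UNC5C, 1 of each in DCC, 1 rise in NTNG1 and 1 fall in UNC5A. UNC5B, NEO1, NTN1 and NTN4 had no called peak. The median log2 fold change was 0.42 over the UNC5D peaks, −0.01 over the 121 peaks of the other 8 genes and −0.0049 over all tested peaks.

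**Figure D1:**
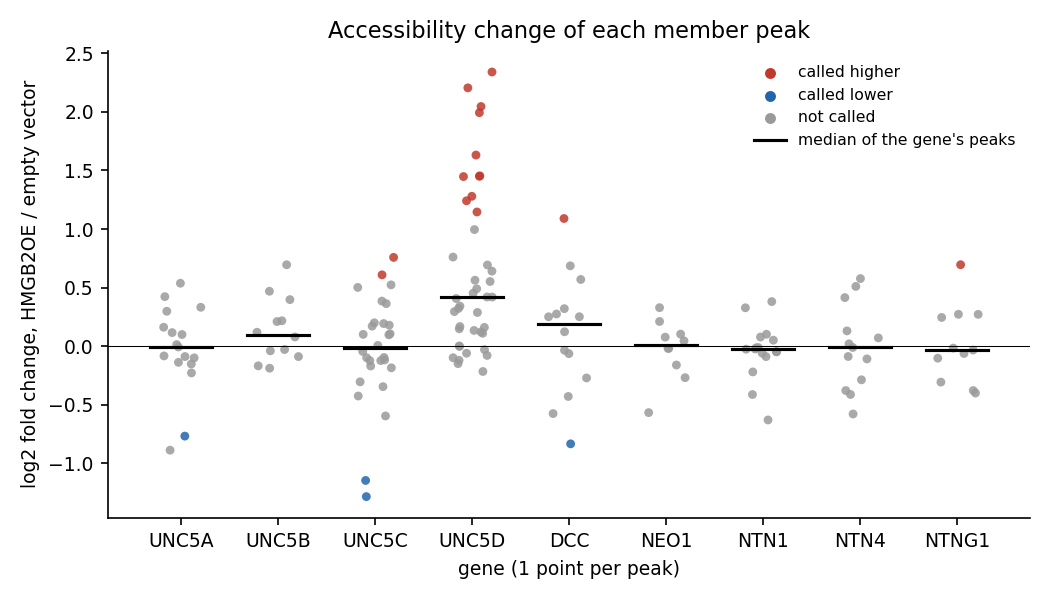
Log2 fold change (HMGB2OE over empty vector) of every peak of the 9 genes, 1 point per peak, with the median of each gene as a line. UNC5D peaks reach 2.34 with none called lower, while the medians of the other genes lie between −0.03 and 0.19.

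Among the UNC5 receptors, UNC5D is known for roles in the migration and survival of cortical neurons. The gene runs over 561 kb of chromosome 8 (35235475 to 35796550, plus strand, hg38). Of its 41 peaks, 24 lay upstream of the start site, 14 in introns and 3 beyond the gene. All 14 intronic peaks had a positive log2 fold change, with a median of 1.36, and 9 of them were called higher. Of the 24 upstream peaks, 2 were called higher and the median was 0.29. None of the 3 downstream peaks was called, and their log2 fold changes ran from 0.15 to 0.995.

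Summed over the 14 intronic peaks, the normalized counts were 721, 619 and 603 in EV1 to EV3 and 1042, 1098 and 1103 in OE1 to OE3. The libraries of the conditions did not overlap, and the HMGB2OE mean was 167% of that in empty vector. The 27 intergenic peaks of UNC5D together gave 4240 ± 275 normalized counts in empty vector and 4527 ± 217 in HMGB2OE (SD, n = 3 each), a difference within the overlap of the libraries. Over all 41 peaks the sum rose from 4888 ± 225 to 5608 ± 204 (SD, n = 3 each), without overlap.

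**Figure D2:**
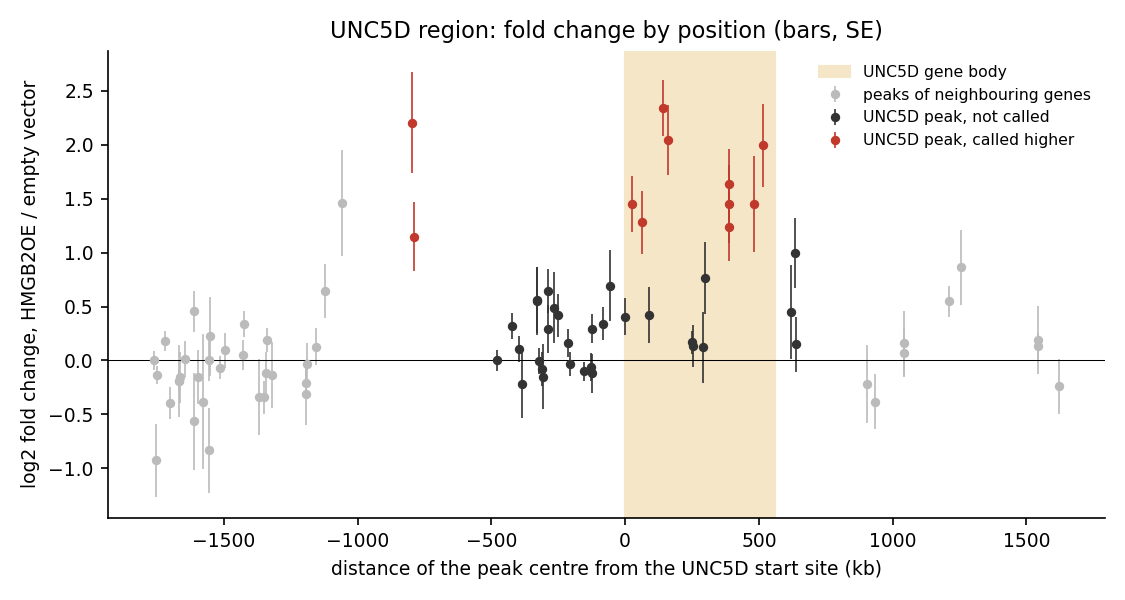
Log2 fold change with its SE for each peak assigned to UNC5D and for peaks of neighbouring genes within 1 Mb on each side, by distance of the peak centre from the UNC5D start site in kb. The 9 called intronic peaks lie inside the shaded gene body and 2 called peaks lie farther upstream, with uncalled peaks between them.

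Followed along the chromosome, the first called UNC5D peaks were a pair of intergenic sites 798 and 790 kb before the start site, spanning 8033 bases. At the first (34437445 to 34437946), the normalized counts were 2.78, 11.2 and 4.68 in EV1 to EV3 and 31.5, 31.7 and 31.5 in OE1 to OE3. Its log2 fold change of 2.20 ± 0.47 (SE) rests on 2, 13 and 4 raw reads in the empty vector libraries. At the second (34444976 to 34445477), the counts were 30.6, 15.5 and 19.9 in empty vector and 41.7, 45.9 and 55.2 in HMGB2OE. Every HMGB2OE library exceeded every empty vector library at both sites of the pair. The next 22 upstream peaks had log2 fold changes between −0.22 and 0.69 and none was called.

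The most accessible UNC5D sites were in this upstream stretch. The peak of highest count (35082958 to 35083459), 152 kb before the start site, gave normalized counts of 930, 1134 and 934 in EV1 to EV3 and 967, 928 and 911 in OE1 to OE3. Its log2 fold change was −0.10 ± 0.09 (SE) and the libraries overlapped. The promoter peak (35235139 to 35235640) was weak by comparison, with counts of 86.2, 72.3 and 76.1 in the empty vector libraries and 107, 103 and 97.9 in HMGB2OE. Its libraries did not overlap, but its log2 fold change of 0.41 ± 0.17 (SE) was not called.

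Inside the gene, called and uncalled peaks alternated. The first called intronic peak (35262171 to 35262672), 26.9 kb into the gene, gave normalized counts of 22.2, 25.8 and 28.1 in the empty vector libraries and 69.7, 61.7 and 78.8 in HMGB2OE. The second (35299107 to 35299608), at 63.9 kb, had 27.8, 19.8 and 22.2 against 66.3, 55.0 and 45.03. Both were more than doubled in the HMGB2OE mean, with log2 fold changes of 1.45 ± 0.26 and 1.28 ± 0.29 (SE). An uncalled peak at 88.8 kb followed, with a log2 fold change of 0.42 ± 0.26 (SE).

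The largest rise of any member peak was at 142 kb (35377339 to 35377840), where counts of 15.3, 18.9 and 16.4 in empty vector stood against 95.2, 88.4 and 76.6 in HMGB2OE. This is a log2 fold change of 2.34 ± 0.26 (SE), or 5.06-fold. At 161 kb (35395950 to 35396451), the counts were 20.8, 9.46 and 21.1 against 57.0, 57.6 and 92.3, with OE3 the highest library. Neither site had an empty vector library above 22 normalized counts.

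The middle of the gene held the strongest intronic peak, at 252 kb, and it changed little. It had 315, 337 and 287 normalized counts in EV1 to EV3 and 334.1, 374.5 and 349.0 in OE1 to OE3, a log2 fold change of 0.17 ± 0.11 (SE). The 3 peaks next to it, at 253, 290 and 298 kb, were not called either, with log2 fold changes of 0.13, 0.12 and 0.76. The 5 uncalled intronic peaks summed to 477 ± 41.6 in empty vector libraries and 554 ± 31.2 in HMGB2OE (SD, n = 3 each), which was 116% of the empty vector level.

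A cluster of 3 called peaks within 2406 bases followed at about 389 kb. The first of them (35622801 to 35623302) gave normalized counts of 30.6, 6.88 and 21.1 in the empty vector libraries and 56.1, 47.5 and 47.3 in HMGB2OE. The second (35623993 to 35624494) had 19.5, 20.6 and 21.1 against 43.4, 38.4 and 65.3. The third (35624705 to 35625206) had 25.0, 10.3 and 25.7 against 40.8, 77.6 and 64.2. The groups were apart at each of the 3, with log2 fold changes of 1.45 ± 0.36, 1.24 ± 0.32 and 1.63 ± 0.33 (SE). Being so close, these peaks may share fragments and are not independent sites.

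The last 2 called peaks lay towards the 3′ end of the gene. At 484 kb (35718737 to 35719238), the counts were 31.96, 6.88 and 7.02 in empty vector and 30.6, 32.5 and 55.2 in HMGB2OE. This was the only called UNC5D peak whose groups overlapped, EV1 lying above OE1. At 517 kb (35751802 to 35752303), the counts were 20.8, 6.02 and 10.5 against 53.6, 50.0 and 36.0, without overlap and with a log2 fold change of 1.99 ± 0.39 (SE).

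**Figure D3:**
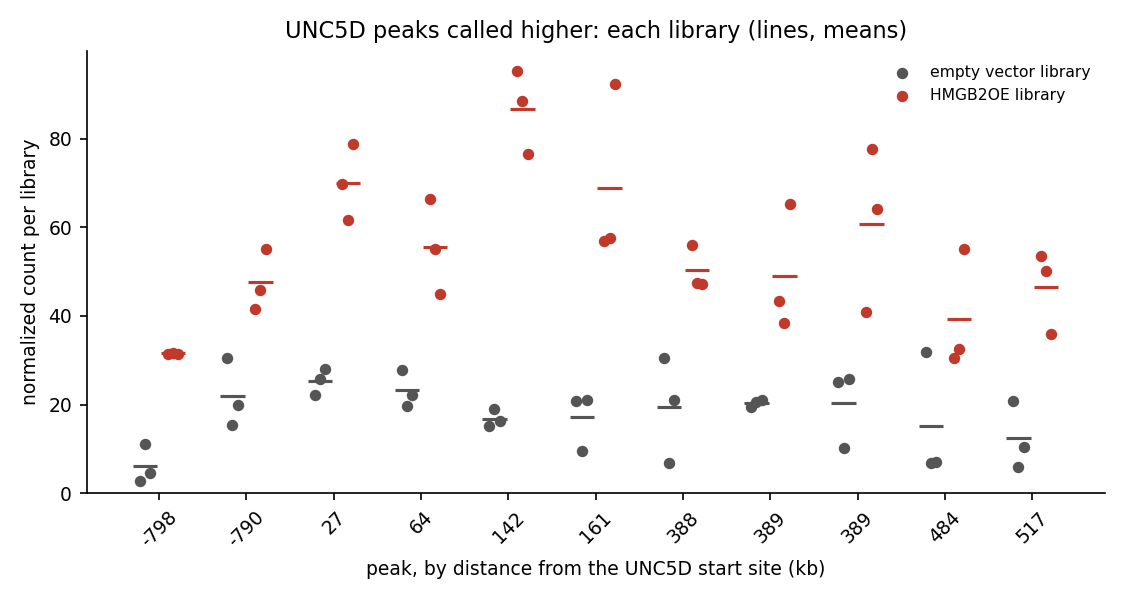
Normalized count in each of the 6 libraries at the 11 UNC5D peaks called higher, ordered by distance from the start site in kb, with group means as lines. Empty vector means lie between 6.22 and 25.4 and HMGB2OE means between 31.6 and 86.7, and the groups overlap only at the peak 484 kb into the gene.

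The called UNC5D peaks shared a low starting level. Their empty vector means ran from 6.22 to 25.4 normalized counts, below the median of 104 over all tested peaks. Splitting the UNC5D peaks by their mean over all 6 libraries, all 11 calls fell among the 28 peaks under 100 normalized counts, whose median log2 fold change was 0.67. The 13 peaks at or above 100 had a median of 0.0021 and ran from −0.12 to 0.34. Over all tested peaks, 2.18% of those under 100 and 1.58% of those at or above 100 were called higher. Among the other 8 genes, 2 of 60 peaks under 100 were called higher. Those 60 had a median empty vector level of 58.0 and a lowest of 26.2, above every called UNC5D peak. The cut at 100 therefore does not match the empty vector levels, and no peak of the other genes was as low in empty vector. That level is itself part of the fold change. By the mean over 6 libraries, the called UNC5D peaks ran from 18.9 to 51.8, and the other genes did have peaks in that range. Among these, the DCC peak from 53312050 (26.2 in empty vector, 21.2 in HMGB2OE) was not called. The UNC5C peak from 95585181 (51.5 and 21.2) was called lower. Spearman's rho between mean count and log2 fold change was −0.57 across the 41 UNC5D peaks and −0.03 across the other 121 member peaks. Within the 14 intronic UNC5D peaks it was −0.18. Of the UNC5D peaks under 100, 9 of 13 intronic ones were called higher (median log2 fold change 1.45) and 2 of 15 intergenic ones (0.49). Level was thus mixed with location, and the part of each was not tested. At 7 UNC5D peaks, all 3 HMGB2OE libraries reached the count level of the filter but not all 3 empty vector libraries did. This held at no peak of the other 8 genes and at 881 of all 150117 tested peaks. The filter asks for any 3 libraries, so such peaks would not have passed on their empty vector libraries alone. Among the 7 were the called UNC5D peaks from 34437445, 35395950, 35622801, 35718737 and 35751802. With no filter on low counts, 11 UNC5D peaks were called higher as well.

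**Figure D4:**
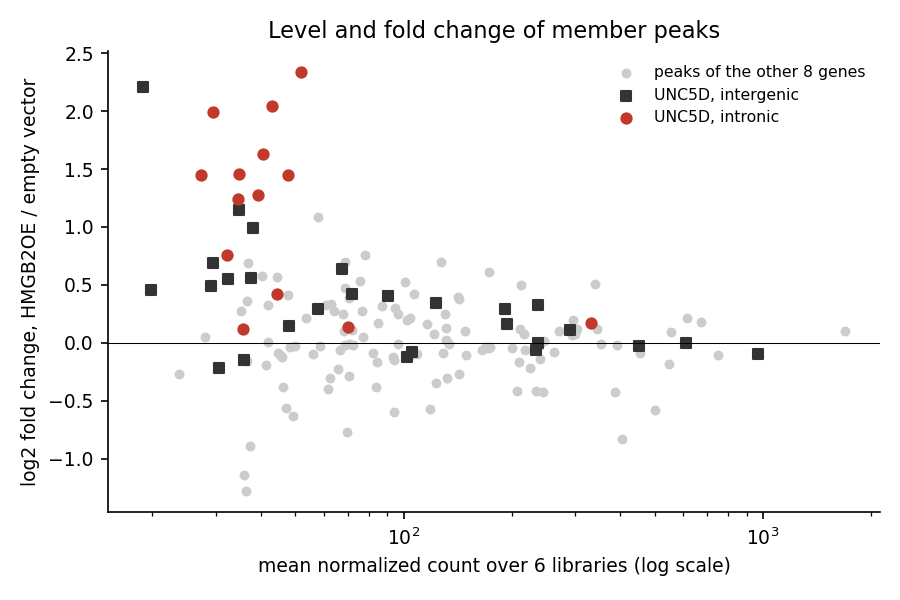
Log2 fold change against the mean normalized count over 6 libraries (log scale) for intronic and intergenic UNC5D peaks and for the peaks of the other 8 genes. The UNC5D peaks at or above 100 lie between −0.12 and 0.34, and the 11 called ones lie at the low end of the count range.

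In sequence, 7 of the 11 called UNC5D peaks held an AP-1 word, as did 11 of the 30 uncalled ones and 28.0% of all tested peaks. By level, it was in 7 of the 13 UNC5D peaks at or above 100, none of them called, and in 11 of the 28 under 100. A SOX-type word was in 5 of the 11 called and 12 of the 30 uncalled UNC5D peaks, beside 37.3% of all tested peaks. The E-box word was in none of the 11 called ones, beside 6.85% of all tested peaks. The median GC content was 40.8% in called and 39.8% in uncalled UNC5D peaks. These are matches of letters in 502-base windows and no measure of binding.

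Peaks around UNC5D on the chromosome were read by the same rule, and whether the region changed as a whole was not tested. In the 1 Mb before its first peak, 31 peaks of neighbouring genes had a median log2 fold change of −0.12 with no call in either direction, and in the 1 Mb after its last peak 9 peaks had a median of 0.13 with no call. Within 2 Mb of the gene body, 3 of 112 peaks assigned to other genes were called higher and none lower. Around each of the other 8 member genes, 0 to 4 such neighbouring peaks were called higher and 1 to 7 lower, with medians between −0.08 and 0.03. Over the 6717 other tested peaks of chromosome 8, 2.26% were called higher and 1.73% lower. By the share of tested peaks called higher, UNC5D ranked 3 of 1840 protein-coding genes with at least 20 tested peaks, at 26.8%. ID2 (11 of 33 peaks) and AGBL1 (8 of 27) had larger shares, and CPEB2 (7 of 32) and MDGA2 (5 of 24) followed. FHIT (8 of 42) and IRX3 (4 of 21) shared the next rank.

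UNC5C, a receptor that mediates repulsion from netrin-1 in the developing nervous system, showed changes in both directions. Its strongest peak (95304830 to 95305331 on chromosome 4), in an intron, had 1406, 1739 and 1734 normalized counts in EV1 to EV3 and 1836, 1638 and 1769 in OE1 to OE3, with overlap and a log2 fold change of 0.10 ± 0.08 (SE). The called rises were both intronic, near the 3′ end of the gene, which lies on the minus strand. One (95232538 to 95233039) had 36.1, 59.4 and 77.2 against 85.9, 101 and 110, and the other (95191050 to 95191551) had 125, 113 and 174 against 195, 194 and 239. The groups did not overlap at either site, and the log2 fold changes were 0.76 ± 0.22 and 0.61 ± 0.15 (SE).

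The called falls of UNC5C were both upstream, 36.2 and 127 kb before the start site. At the nearer one, whose sequence is given above, counts of 62.5, 40.4 and 51.5 in empty vector stood against 18.7, 16.7 and 28.1 in HMGB2OE. The farther one (95675580 to 95676081) had 40.3, 61.9 and 46.8 against 32.3, 20.02 and 14.6. These were the largest falls of any member peaks, with log2 fold changes of −1.28 ± 0.32 and −1.15 ± 0.32 (SE). Summed over its 28 peaks, UNC5C gave 5966 ± 472 normalized counts in empty vector and 6199 ± 195 in HMGB2OE (SD, n = 3 each), with overlap.

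UNC5A and UNC5B, both known as netrin-1 receptors, had 1 called peak between them. The called fall of UNC5A lay 34.8 kb upstream (176775444 to 176775945 on chromosome 5), with counts of 75.0, 106 and 80.7 in the empty vector libraries and 42.5, 49.2 and 65.3 in HMGB2OE. Its log2 fold change was −0.77 ± 0.22 (SE) and the groups did not overlap. A larger one, −0.89 ± 0.30 (SE), at a weaker peak 55.9 kb upstream was not called. UNC5B (chromosome 10, 71212570 to 71302864) had no call, and its peaks ran from −0.19 to 0.69. The peak with 0.69 (71136153 to 71136654), 76.2 kb upstream, was called without OE3 (log2 fold change 0.88) and with the replicate number as a block (0.67). Its strongest peak, in an intron 48.2 kb into the gene, gave normalized counts of 495, 608 and 598 in the empty vector libraries and 678, 610 and 689 in HMGB2OE, apart by the narrow gap between EV2 and OE2. Its log2 fold change of 0.21 ± 0.10 (SE) was far under the fold limit.

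DCC, the receptor best known for attraction to netrin-1, held the strongest called peak of the 9 genes, and it fell. This upstream site on chromosome 18, 102 kb before the start site and shown above, had 434, 615 and 503 normalized counts in EV1 to EV3 and 312, 303 and 259 in OE1 to OE3. The groups did not overlap, and the log2 fold change was −0.83 ± 0.12 (SE). Another pair of upstream DCC peaks passed the adjusted p but not the fold limit. The first, 442 kb before the start site, went from 142 ± 9.34 to 95.0 ± 0.340 normalized counts and the second, at 179 kb, from 445 ± 49.0 to 330 ± 13.4 (SD, n = 3 each). Their log2 fold changes were −0.57 ± 0.15 and −0.43 ± 0.11 (SE).

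The rise in DCC was intronic, 213 kb into a gene of 1196 kb. Counts there were 33.4, 34.4 and 43.3 in empty vector and 79.1, 81.7 and 75.4 in HMGB2OE, a log2 fold change of 1.09 ± 0.23 (SE) without overlap. Summed over its 14 peaks, DCC fell from 1956 ± 103 to 1727 ± 16.9 normalized counts (SD, n = 3 each), the groups being apart. Without the called upstream peak the sums were 1438 ± 77.7 and 1436 ± 17.9, where the other upstream falls stood beside rises at weaker peaks. The peak left out was the largest fall of the gene. NEO1 (chromosome 15, 73051710 to 73305205), which besides netrins binds the repulsive guidance molecules, had no call among its 10 peaks and sums of 942 ± 22.4 and 937 ± 40.2 (SD, n = 3 each). Its largest fall was −0.57 ± 0.27 (SE), at an intronic peak 29.9 kb into the gene.

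Among the ligands, NTN1 encodes netrin-1, the secreted cue of both DCC and UNC5 receptors. The gene lies on chromosome 17 from 9021510 to 9244000. None of its 16 peaks was called and its sums were 2162 ± 94.1 and 2098 ± 80.2 normalized counts (SD, n = 3 each), with overlap. Its largest log2 fold changes were 0.38 ± 0.15 and −0.63 ± 0.27 (SE), both in introns. NTN4, a netrin of basement membranes, had no call, but 3 of its peaks passed the adjusted p without reaching the fold limit. The strongest (95805848 to 95806349 on chromosome 12), 14.9 kb upstream, gave normalized counts of 553, 645 and 597 in the empty vector libraries and 417, 417 and 369 in HMGB2OE. Its log2 fold change of −0.58 ± 0.10 (SE) fell just short of the limit of 1.5-fold, and it was called without EV1 (−0.63), OE1 (−0.61) or OE2 (−0.61). Another upstream peak (log2 fold change −0.41 ± 0.12, SE) and an intronic one (0.51 ± 0.11, SE) moved in opposite directions. The NTN4 sum fell from 2163 ± 37.0 to 2035 ± 16.4 (SD, n = 3 each) without overlap. Without the strongest peak, the largest fall of the gene, it rose from 1564 ± 12.9 to 1634 ± 21.3 (SD, n = 3 each), also without overlap.

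NTNG1 encodes netrin-G1, a membrane-anchored relative that binds LRRC4C and not DCC or UNC5 receptors. Its called rise lay 404 kb from the start site, beyond the end of the gene. Counts were 111, 94.6 and 87.8 in empty vector and 162, 174 and 134 in HMGB2OE, a log2 fold change of 0.70 ± 0.16 (SE) without overlap. The strongest NTNG1 peak, 13.6 kb away from it, had 634, 865 and 824 against 824, 683 and 663 and its groups overlapped.

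With no fold limit, 17 member peaks passed the adjusted p as higher, beside 3.44% of all tested peaks, and 9 as lower, beside 3.03%. All 3 HMGB2OE libraries lay above all 3 empty vector libraries at 33 member peaks, 20 of them in UNC5D, beside 12.6% of all tested peaks. They lay below at 17 member peaks, beside 12.5%, and none of these belonged to UNC5D.

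The genes were ordered by the empty vector level of their strongest peak within 3 kb of a start site, as counts over windows of equal length. UNC5B was highest with 469 ± 15.7 normalized counts, followed by NTNG1 with 395 ± 18.2 (SD, n = 3 each). NEO1 (293 ± 7.99), DCC (290 ± 30.4), NTN4 (286 ± 22.5) and UNC5C (274 ± 37.2) had libraries that overlapped from each gene to the next. NTN1 followed with 222 ± 12.4, and UNC5A (91.7 ± 10.7) and UNC5D (78.2 ± 7.18), whose libraries overlapped, were lowest (SD, n = 3 each). The windows taken for DCC and UNC5A lay 2.72 kb upstream and 2.42 kb inside the gene, and the order of these genes depends on that choice. The DCC peak at the start site itself (52339863) had 119 ± 10.1 normalized counts in empty vector, below the NTN1 level, and 142 ± 19.3 in HMGB2OE. The UNC5A peak at the start site (176810170) had 99.2 ± 32.8 and 89.0 ± 6.68 (SD, n = 3 each), with overlap and a log2 fold change of −0.15 ± 0.20 (SE). No promoter peak was called. Of the 9 strongest ones, those of UNC5A and UNC5D had groups that were apart, both higher in HMGB2OE, with log2 fold changes of 0.42 ± 0.16 and 0.41 ± 0.17 (SE). A weaker NTNG1 peak 0.763 kb before its start site (107138994) was apart in the other direction, at 145 ± 3.22 and 118 ± 18.5 normalized counts (SD, n = 3 each), a log2 difference of −0.31 ± 0.15 (SE).

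**Figure D5:**
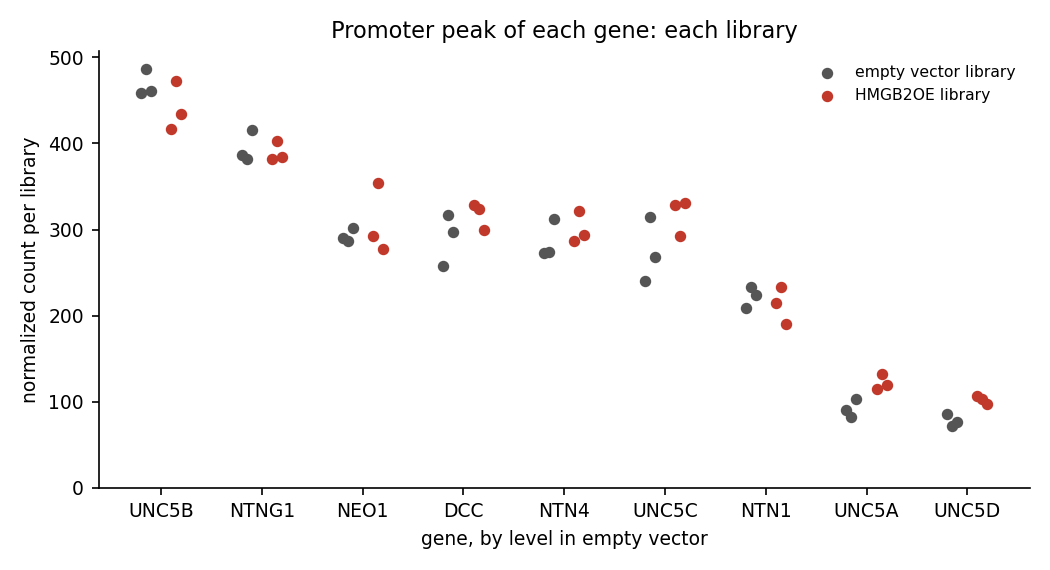
Normalized count of the strongest peak within 3 kb of a start site of each gene in each of the 6 libraries, ordered by the empty vector mean. In these windows the groups overlap at every gene except UNC5A, whose window lies 2.42 kb inside the gene, and UNC5D.

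Around the 9 genes, 2 lists of pathway genes were read in the same way. Of 270 peaks of 16 ligands and receptor partners, 1 (0.37%) was called higher, beside 1.87% of all tested peaks, and 8 (2.96%) lower, in 4 genes, beside 1.44%, with a median log2 fold change of 0.0050. LRRC4C, the membrane partner of netrin-G1, held the 1 rise and 3 of the falls. Its largest fall was from 126 ± 12.8 to 59.2 ± 6.63 normalized counts (SD, n = 3 each), and its log2 difference was −1.09 ± 0.18 (SE). FLRT2, which binds UNC5 receptors including UNC5D, had 3 falls, the largest from 147 ± 11.3 to 78.7 ± 7.95 (SD, n = 3 each). Of 259 peaks of 18 cytoplasmic effectors, 5 (1.93%) rose by the same call rule, close to the share over all tested peaks, and 2 (0.77%) fell, and the median log2 fold change was −0.0041. The rises were 2 in MAP1B, a microtubule-associated protein, and 1 each in DAPK1, a kinase acting with UNC5 in cell death, PTK2, the focal adhesion kinase, and DOCK1, an activator of RAC1. The 2 falls lay in DOCK1 (log2 fold change −0.90 ± 0.26, SE) and PTK2 (−0.60 ± 0.16, SE), so these genes changed in both directions.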

How the data were processed

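ATAC-seq libraries of A375 cells, 3 empty vector and 3 HMGB2OE, were grouped by their labels. Per the labels and the study's methods, the authors trimmed reads (Trim Galore 0.6.7, cutadapt 4.0), mapped them to hg38 by Bowtie 2, marked duplicates in Picard, ran MACS2 with a public melanocyte dataset as control, merged nearby peaks and deposited raw counts per peak and library from featureCounts. Any shift of reads for Tn5, and whether peaks were called per library, are not given in the sources used here.

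The deposited counts were tested with edgeR 4.0.16 (R 4.3.3), using TMM, filterByExpr and the quasi-likelihood F test, with Benjamini–Hochberg adjustment over 150117 peaks. Each SE is the size of the log2 fold change over the root of its F. A normalized count is a count scaled to the average effective library size. GENCODE 44 gave gene bodies and start sites, and a promoter peak lay within 3 kb of a protein-coding transcript start. The pipeline was tested on simulated data.

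The genes, lists and tests were chosen with earlier results of these data known. Named peaks were every called member peak, each gene's promoter peak, strongest peak, largest rise and largest fall, and every UNC5D peak by position. Other peaks named, the split at 100 counts and the sums without 1 peak were chosen after their values were seen. Alternatives were DESeq2 1.42.0, other scalings, filters, limits and assignments, a replicate block and leaving out each library. p-values measure the spread between libraries, which may be technical. Libraries of a condition differed by more than sampling noise.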

Additional observations from a re-analysis of the deposited data

How the results depend on the processing

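The direction of every called peak held under all 14 alternatives in which it could be tested. Among the UNC5D calls, those at 35377339, 35395950, 35262171, 35624705 and 35751802 were kept throughout, and the last was not tested when at least 10 counts were required in every library. That filter left out 4 of the 11 called peaks, giving 7 UNC5D rises and a median log2 fold change of 0.33. Of all 147528 peaks tested with it, 2826 were called higher. The peak at 35718737 lost its call with library totals, with DESeq2's test and without any of 5 libraries, every one except EV1. The call at 34437445 was lost with DESeq2's test only, those at 35622801 (without EV2 or OE1), 35623993 (EV2 or OE3) and 35299107 (OE1) when a library was left out, and that at 34444976 without any of 5 libraries, every one except EV1. Outside UNC5D, both DCC calls were kept throughout. NTNG1 lost its call without OE2, and UNC5A with DESeq2's test and without EV2, OE1 or OE2. UNC5C lost the rises at 95191050 (without EV1, EV2 or OE3) and 95232538 (DESeq2's test, and without EV1, EV2, OE2 or OE3) and the falls at 95585181 (without EV1, OE1 or OE2) and 95675580 (without EV2, OE2 or OE3). Calls were gained by the NTN4 peak at 95805848 without EV1, OE1 or OE2, and by the UNC5B peak at 71136153 without OE3 and with the replicate block.

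Leaving out each library in turn gave 11 to 13 member rises, 3 to 4 member falls and 7 to 11 UNC5D rises, fewest without HMGB2OE replicate 1, with no UNC5D fall. Over all tested peaks these fits gave 1821 to 2978 rises and 1552 to 2237 falls. Those rises too were fewest without HMGB2OE replicate 1, at 1821 against 2800 with all libraries. The UNC5D median then ran from 0.35 to 0.49. It was 0.38 both with the loess trend removed and with 10 Mb window medians removed, and 1.36 over gene body peaks only, where 0 member peaks were called lower. At an adjusted p under 0.01 there were 9 member rises, 1 member fall and 7 UNC5D rises. The counts over all tested peaks at that limit are not given here. With a lower fold limit, or none, member falls numbered 9. Replicate numbers paired the libraries unevenly. The correlation of deviations was −0.09, 0.19 and 0.13 for numbers 1, 2 and 3, and −0.27 to 0.16 between unlike numbers. With the replicate block there were 18 member rises, 5 falls, 13 UNC5D rises and a UNC5D median of 0.42. Over all tested peaks the block gave 3192 rises and 2383 falls. The empty vector libraries held as few as 2 reads at a called UNC5D peak, so fold changes there are imprecise. The causes of these differences were not tested.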
